A study of Mus musculus with 5 samples.

Results

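Chemokines are small proteins that guide the movement of cells, most of them secreted and some held on the cell surface, and they act through G protein coupled receptors carried mostly by leukocytes. In the kidney they are made by tubular epithelium, vessels, stromal cells and resident macrophages. They are known for drawing monocytes, T cells and neutrophils into injured tissue, while a homeostatic group keeps cells in place in healthy organs. Genes were taken as members by their symbols, as every CC, CXC, CX3C and XC ligand and receptor, the atypical receptors *Ackr1* to *Ackr4* and *Ccrl2*. This gave 62 of the 24421 genes counted, 39 ligands and 23 receptors.

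The study compared kidney cortical tissue of *Fnip1* null mice (*Fnip1*-/-) with that of wildtype mice (*Fnip1*+/+) on the C57BL6J strain, with no treatment. *Fnip1* encodes a partner of folliculin, and the null allele came from chemical mutagenesis, so it is carried by every cell of the mouse and no kidney cell type was targeted. Single RNAseq libraries were available from null mice 8637, 9210 and 9121 (3 in all) and from wildtype mice 9055 and 9056 (2 in all). The labels give the controls as *Fnip1*+/+ and are followed here, while the study's text also calls the control mice *Fnip1*+/-, so which genotype they carried is uncertain. Ages are not given in the labels, and p-values measure the spread between these mice.

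The reads counted on genes were between 15799114 and 19132145 per mouse, and the members held between 7047 and 12622 of them. Values are given as CPM, counts scaled by TMM to a common library size, on which a floor of 3 counts was 0.158 to 0.186 depending on the mouse, and expression under this floor was not detectable. *Fnip1* itself was at 51.8 and 48.7 CPM in the wildtype mice and at 21.0, 16.9 and 16.0 CPM in null mice 8637, 9210 and 9121, a log2 fold change of -1.48 ± 0.138 (SE, adjusted p = 0.0330). The labels give no sex, and mouse 9121 stood apart, with *Xist* at 314 CPM against at most 1.41 CPM in the other mice and *Ddx3y* at 0 CPM against at least 42.8 CPM. By these transcripts mouse 9121 was female and all other mice, both wildtype mice among them, were male. The part of sex in the member values was not tested. Summed adipocyte genes were at 182 CPM in mouse 9210 and 63.4 CPM in mouse 9121, against at most 7.89 CPM in the other mice. Tubule, podocyte and endothelial markers were present in all 5 mice, as the tissue label requires.

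Of the 62 members, 54 had at least 1 count and 26 passed the filter on low counts, which required 10 counts in at least 3 of the 5 mice. These were 14 ligands and 12 receptors. The 8 members without a count were *Ccl21a*, *Ccl21b*, *Ccl21c*, *Ccl26*, *Ccl27b*, *Ccr3*, *Cxcl3* and *Cxcr1*. Alignments that were not unique were not counted, so for genes with near-identical copies the lack of a count need not mean a lack of expression. edgeR's quasi-likelihood test was fitted over all 13874 genes that passed the filter, and a gene was called at a false discovery rate (FDR) of 5% and at least 2-fold. For any gene alone, exact permutation of 3 and 2 mice gives no p-value under 0.1.

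A single member, *Ccl28*, was called, and it was lower in *Fnip1* null tissue. The share of all genes tested that was called lower was 0.123%. No member was called higher, against 0.404% of all genes. The filter could be passed by the 3 null mice alone and never by the 2 wildtype mice alone, and *Ackr2*, *Ccr1* and *Xcr1* entered in this way, so that these 3 members had to be higher in null mice (157 of all genes, or 1.13%, entered likewise). Among the other 23 members tested, 19 had a log2 fold change above 0 and 4 had one below, with a median of 0.77. With all 26 members the counts were 22 and 4 and the median was 0.90. Over all genes tested, 50.5% had a log2 fold change above 0 and the median was 0.00350. An unadjusted p under 0.05 in the quasi-likelihood test was found for 11 of the 26 members on the higher side, against 14% of all genes. The 11 include *Ccr1* and *Xcr1*, whose direction was fixed by the filter. On the lower side it was found for 2 members, against 11.2% of all genes. All 3 null mice lay above both wildtype mice in 12 of 26 members, against 22.9% of all genes, and below both in 2 of 26, against 23% of all genes. Without *Ackr2*, *Ccr1* and *Xcr1* the null mice lay above in 9 of 23 members. Because reads come from whole cortex, fewer cells of a type and less RNA per cell cannot be told apart.

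**Figure D1:**
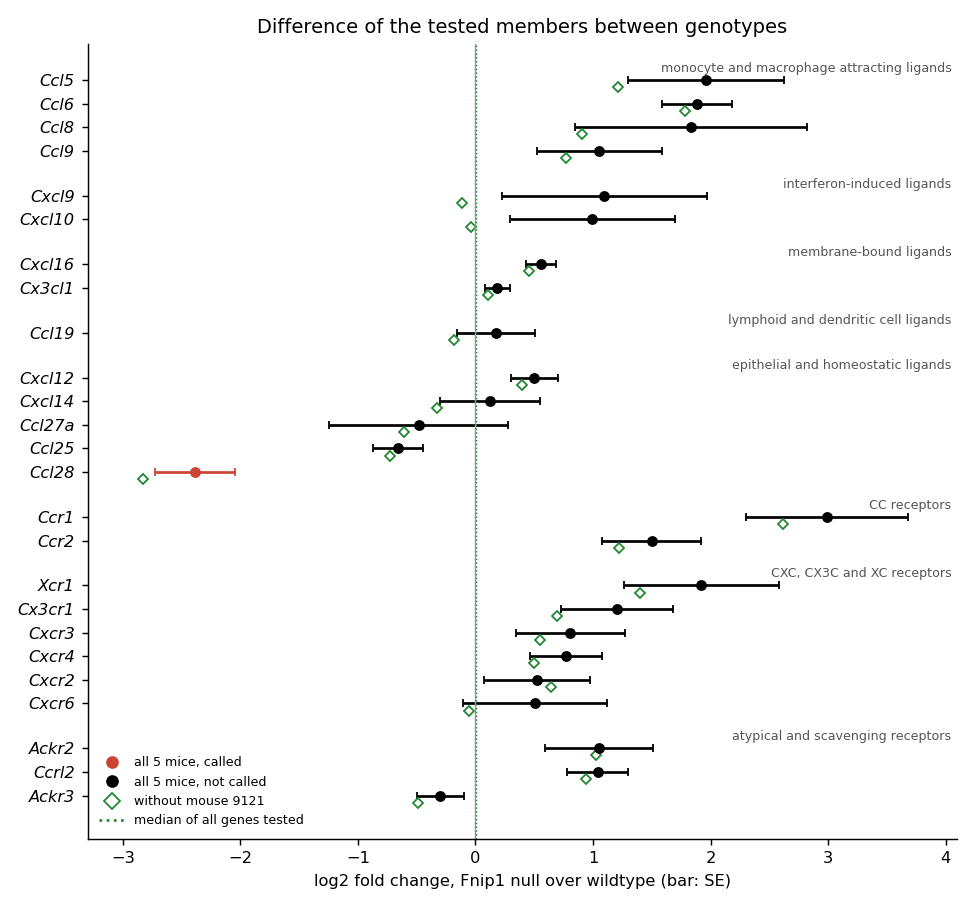
Log2 fold change of *Fnip1* null over wildtype for 25 of the 26 members tested, ordered by role (circles, bars are SE) and the same value without mouse 9121 (open diamonds), with the median of all genes tested as a dotted line. *Ccl28* at -2.38 is the member called, and most others lie to the right of 0.

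The test used decided how many members were called higher. edgeR's exact test on the same counts called 7 members higher, among them *Ccl5*, *Ccl6*, *Ccr1*, *Ccr2*, *Ccrl2* and *Xcr1*, against 3.06% of all genes called higher, and *Ccl28* lower, against 1.05% of all genes. DESeq2 gave an adjusted p to 21 members and called 5 of them higher, among them *Ccl5*, *Ccl6*, *Ccr2* and *Ccrl2*, against 2.74% of its genes, and *Ccl28* lower, against 0.907%. *Ccr1* and *Xcr1* are 2 of the 7 and passed the filter through the null mice alone, which leaves 5 calls among the other members, and neither had an adjusted p in DESeq2. The adjusted p-values printed with a log2 fold change below are from the quasi-likelihood test unless another is named.

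The promoters of the members the comparison turned on are shown here so that their sequence can be read beside the values that follow. They are RefSeq sequences (GRCm38.p6), from 250 bases before to 50 bases after the start of transcription, 5′ to 3′ on the strand of the gene. Capitals mark matches on either strand to the NF-kappaB site, the interferon response core GAAANNGAA, the PU.1 core GAGGAA, the E-box CACGTG or the TATA box TATAAA, where a capital run can hold overlapping matches. The *Ccl28* window lies at chr13:119623569-119623868 (+ strand) and that of *Ccl6* at chr11:83593038-83593337 (- strand). The *Ccr1* window is chr9:123968643-123968942 (- strand), the *Ccr2* window chr9:124101933-124102232 (+ strand) and the *Cxcl10* window chr5:92348840-92349139 (- strand). *Ccl28* and *Ccl6* are shown as the ligands with the lowest p in each direction, *Ccr1* and *Ccr2* as receptors, and *Cxcl10* as an interferon-induced ligand for contrast.
Ccl28: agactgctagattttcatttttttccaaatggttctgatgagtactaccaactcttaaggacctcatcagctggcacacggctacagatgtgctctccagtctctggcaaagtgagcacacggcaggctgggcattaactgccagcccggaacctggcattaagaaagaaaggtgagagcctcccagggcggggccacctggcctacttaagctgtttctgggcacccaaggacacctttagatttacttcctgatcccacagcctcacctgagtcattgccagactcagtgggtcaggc
Ccl6: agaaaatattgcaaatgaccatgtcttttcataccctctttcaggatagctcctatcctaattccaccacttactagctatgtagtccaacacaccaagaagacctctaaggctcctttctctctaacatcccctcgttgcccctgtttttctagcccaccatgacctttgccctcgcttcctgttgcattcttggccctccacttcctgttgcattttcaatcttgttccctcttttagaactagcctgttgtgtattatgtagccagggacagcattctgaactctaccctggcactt
Ccr1: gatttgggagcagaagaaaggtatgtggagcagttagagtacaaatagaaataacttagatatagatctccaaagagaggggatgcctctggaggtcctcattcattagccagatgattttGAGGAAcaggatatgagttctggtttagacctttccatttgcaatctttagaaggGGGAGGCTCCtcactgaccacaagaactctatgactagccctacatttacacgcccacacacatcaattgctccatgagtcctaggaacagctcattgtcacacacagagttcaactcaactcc
Ccr2: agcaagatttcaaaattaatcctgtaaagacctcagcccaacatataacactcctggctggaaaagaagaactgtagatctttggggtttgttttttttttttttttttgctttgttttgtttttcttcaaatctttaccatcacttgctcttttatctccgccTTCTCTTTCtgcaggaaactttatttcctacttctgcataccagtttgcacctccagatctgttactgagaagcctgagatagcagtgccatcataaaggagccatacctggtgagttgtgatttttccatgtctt
Cxcl10: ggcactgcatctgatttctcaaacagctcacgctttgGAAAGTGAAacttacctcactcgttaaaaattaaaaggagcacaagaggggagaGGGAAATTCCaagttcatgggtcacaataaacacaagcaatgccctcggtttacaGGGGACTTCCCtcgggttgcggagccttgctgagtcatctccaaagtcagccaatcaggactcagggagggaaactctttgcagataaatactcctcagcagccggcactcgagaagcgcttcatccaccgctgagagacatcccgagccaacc

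The *Ccl28* and *Ccl6* windows held none of these letters. *Ccr1* held an NF-kappaB match starting 74 bases before the start of transcription and a PU.1 core at 129 bases before it. *Ccr2* held an interferon response core at 86 bases before the start. *Cxcl10* held 3 NF-kappaB matches, of which 2 overlap, and an interferon response core. A match is a description of these letters and not a site at which a factor was measured.

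RefSeq windows were found for 46 of the 62 members and for 23 of the 26 tested, and those not found included *Ccl5* and *Cxcl16*. The NF-kappaB site was found in 6 of 28 windows of the tested members (21.4%) and in 8.46% of all 32851 windows. The interferon response core was found in 17.9% and 8.56%, in the same order, the TATA box in 28.6% and 13.6%, the PU.1 core in 25.0% and 28.3%, and the E-box in 3.57% and 7.15%. Windows with an NF-kappaB match belonged to *Ackr2*, *Ccl27a*, *Ccl9*, *Ccr1*, *Ccrl2* and *Cxcl10*. Of these, *Ackr2* and *Ccr1* had their direction fixed by the filter. The log2 fold change was 1.05 in *Ccl9*, 1.04 in *Ccrl2*, 0.99 in *Cxcl10* (-0.04 without mouse 9121) and -0.48 in *Ccl27a* (0.04 without mouse 8637).

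*Ccl28*, the member that fell, encodes a mucosal chemokine made by epithelial cells, which is known to act through *Ccr10* on lymphocytes that secrete antibody. The gene (ENSMUSG00000074715) lies at chr13:119623819-119654359 on the + strand, and no exon of it overlaps another gene. *Ccl28* was at 34.2 and 28.0 CPM in the wildtype mice and at 4.89, 3.86 and 9.03 CPM in null mice 8637, 9210 and 9121. The groups did not overlap, and the highest null mouse was 9121. The means were 31.1 ± 4.43 CPM (SD, n = 2) and 5.93 ± 2.73 CPM (SD, n = 3), so that *Ccl28* was 5.22-fold lower, with a log2 fold change of -2.38 ± 0.339 (SE) and an adjusted p of 0.0495. Its adjusted p was 1.42e-08 in the exact test and 1.00e-08 in DESeq2. In the quasi-likelihood test the call was lost with mouse 9055, 9056 or 9210 left out (adjusted p = 0.216, 0.512 and 0.173), with log2 fold changes between -2.53 and -2.16, and in these 3 settings no gene of the whole table was called. Without mouse 9121 the difference was -2.83 and without mouse 8637 it was -2.26, and both were called (adjusted p = 0.00642 and 0.0140).

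Levels per length, as CPM divided by the kilobases of exon (RPKM), place *Ccl28* among the other members. *Ccl28* was the sixth highest member in wildtype tissue, at 8.32 ± 1.18 RPKM (SD, n = 2), and the 15th in null tissue, at 1.59 ± 0.731 RPKM (SD, n = 3). Its receptor *Ccr10* was read 6 and 6 times in the wildtype mice and 6, 7 and 4 times in the null mice, and it did not pass the filter. B cell markers summed to 3.36 and 2.40 CPM in the wildtype mice and to 0.530, 0.416 and 1.48 CPM in the null mice, below both wildtype mice in each, and their part in the *Ccl28* difference was not tested.

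The other epithelial and homeostatic ligands did not share this difference in size. *Ccl25*, known from small intestine and thymus as the ligand of *Ccr9*, was at 4.04 and 4.80 CPM in the wildtype mice and at 2.48, 2.85 and 3.06 CPM in the null mice. The groups did not overlap, with a log2 fold change of -0.66 ± 0.210 (SE, adjusted p = 0.133), and exons of *Ccl25* overlap those of *Elavl1*. Its receptor *Ccr9* had between 6 and 9 reads in every mouse.

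*Ccl27a*, the skin chemokine that shares *Ccr10* with *Ccl28*, was at 1.49 and 1.94 CPM in the wildtype mice and at 0.118, 2.14 and 1.43 CPM in the null mice. The low value came from mouse 8637, with 2 reads, and the other null mice were just below and just above the wildtype values. *Ccl27a* (log2 fold change -0.48, adjusted p = 0.723) has near-identical copies in the mouse genome and its exons overlap *Il11ra1*, so its count is uncertain. *Cxcl17*, a mucosal ligand, had at most 2 reads in a mouse.

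*Cxcl12*, which holds hematopoietic and stromal-attached cells in place through *Cxcr4*, had the highest CPM of all members. It was at 187 and 128 CPM in the wildtype mice and at 187, 227 and 255 CPM in the null mice, so that mouse 8637 lay at the upper wildtype value. The log2 fold change was 0.50 ± 0.202 (SE, adjusted p = 0.190). *Cxcl14*, an orphan epithelial chemokine, was at 25.3 and 20.1 CPM in wildtype and at 12.4, 23.8 and 38.1 CPM in null mice. The null mice spanned the wildtype range on both sides (log2 fold change 0.13, adjusted p = 0.874).

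The 2 membrane-bound ligands, which are made with a mucin stalk and shed from the cell surface, were abundant in both groups. *Cxcl16*, a ligand of *Cxcr6* and a scavenger receptor for oxidized lipoprotein, was at 47.2 and 45.0 CPM in the wildtype mice and at 58.9, 67.5 and 77.0 CPM in the null mice. All null mice were above both wildtype mice, with a log2 fold change of 0.56 ± 0.129 (SE). The adjusted p was 0.0900 in the quasi-likelihood test, 0.0187 in the exact test and 0.0148 in DESeq2, and the change was under 2-fold in each, so that *Cxcl16*, which was picked after its values were seen, was not called. Exons of *Cxcl16* overlap those of *Zmynd15*.

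*Cx3cl1*, the ligand of *Cx3cr1*, had the highest level per length in wildtype tissue, at 26.8 ± 1.48 RPKM (SD, n = 2), and *Cxcl12* followed at 22.0 ± 5.90 RPKM, a gap within their spread. In CPM it was at 98.4 and 90.9 in the wildtype mice and at 102, 101 and 119 in the null mice. The null mice were above both wildtype mice by a small margin (log2 fold change 0.19 ± 0.107 SE, adjusted p = 0.320).

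**Figure D2:**
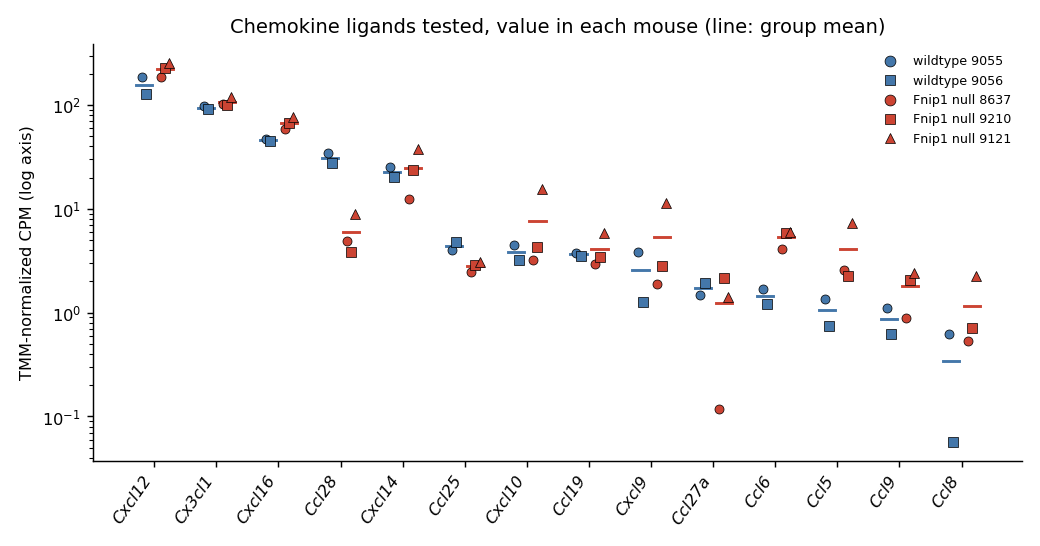
Normalized CPM on a log axis of the 14 ligands tested, in each mouse (blue wildtype, red *Fnip1* null, marker shape gives the mouse, horizontal lines are group means). *Ccl28* is the ligand whose null values, 3.86 to 9.03 CPM, sit far below both wildtype values, and *Cxcl9* and *Cxcl10* are high in mouse 9121.

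Ligands that attract monocytes, macrophages and T cells were scarce in wildtype cortex and had higher summed values in all 3 null mice, though none was called by the quasi-likelihood test. Their summed level was 5.47 and 3.20 CPM in the wildtype mice and 9.13, 12.96 and 21.07 CPM in null mice 8637, 9210 and 9121, and 4 of these 9 ligands were tested. *Ccl6*, a ligand of *Ccr1* made by macrophages and neutrophils in mice, was at 1.68 and 1.20 CPM in the wildtype mice and at 4.07, 5.83 and 6.02 CPM in the null mice. The lowest null mouse had more than the higher wildtype mouse by a wide margin. *Ccl6* was 3.69-fold higher on average (log2 fold change 1.88 ± 0.295 SE), with an adjusted p of 0.0567 that missed the threshold, while the exact test gave 4.03e-05 and DESeq2 gave 0.000103. Leaving out single mice gave log2 fold changes between 1.65 and 2.13.

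*Ccl5*, which draws T cells and monocytes, was at 1.37 and 0.744 CPM in the wildtype mice and at 2.59, 2.26 and 7.34 CPM in the null mice. The null mice lay above both wildtype mice, and mouse 9121 was far above the others. The log2 fold change was 1.96 ± 0.663 (SE, adjusted p = 0.146), and without mouse 9121 it was 1.21. Its adjusted p was 0.0447 in the exact test and 0.0318 in DESeq2. Per length, *Ccl5* was the 11th member in wildtype tissue at 1.98 ± 0.828 RPKM (SD, n = 2) and the sixth in null tissue at 7.64 ± 5.34 RPKM (SD, n = 3).

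*Ccl9*, another ligand of *Ccr1*, was at 1.12 and 0.629 CPM in wildtype and at 0.884, 2.08 and 2.43 CPM in null mice. *Ccl8*, a monocyte chemoattractant, was at 0.621 and 0.0572 CPM in wildtype and at 0.530, 0.713 and 2.27 CPM in null mice. In both genes mouse 8637 lay between the wildtype mice, and their adjusted p-values were 0.266 and 0.292. *Ccl8* had a single read in mouse 9056, and without mouse 9055 its log2 fold change went from 1.84 to 4.22.

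The remaining ligands of this group were too low to test. *Ccl2*, the main ligand of *Ccr2*, was read 6 and 5 times in the wildtype mice and 5, 14 and 29 times in the null mice, with mouse 8637 at the wildtype level. *Ccl7* was read at most 1 time in wildtype and 1, 4 and 2 times in null mice, and *Ccl12* was read 3 and 0 times against 1, 3 and 6 times. *Ccl4*, which draws monocytes and T cells, was read 1 and 5 times in wildtype and 6, 9 and 17 times in null mice. *Ccl3*, a ligand of *Ccr1*, was not read in the wildtype mice and was read 5, 5 and 3 times in the null mice.

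Receptors of the CC family carried by monocytes, macrophages and T cells also had higher summed values in all 3 null mice, and none of the 3 tested was called. The CC receptors summed to 5.09 and 2.92 CPM in the wildtype mice and to 7.01, 10.05 and 15.58 CPM in null mice 8637, 9210 and 9121. *Ccr2*, by which monocytes leave the marrow and enter tissue, was at 2.73 and 1.20 CPM in the wildtype mice and at 4.13, 4.99 and 7.45 CPM in the null mice. The groups did not overlap, and the wildtype mice differed from each other by more than the nearest mice of the 2 groups did in ratio. *Ccr2* was 2.83-fold higher (log2 fold change 1.50 ± 0.422 SE), with adjusted p-values of 0.113 in the quasi-likelihood test, 0.0241 in the exact test and 0.0209 in DESeq2. Without mouse 9055 the log2 fold change of *Ccr2* was 2.19, and without mouse 9056 it was 1.01.

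*Ccr1*, the receptor of *Ccl3*, *Ccl6* and *Ccl9* on monocytes and neutrophils, was at 0.124 and 0.114 CPM in the wildtype mice, or 2 reads in each, and at 0.589, 0.951 and 1.43 CPM in the null mice. Its wildtype values are under the floor of 3 counts and it passed the filter through the null mice alone, so no test is given for it, and it is named here after its values were seen. The groups' summed reads were 4 in wildtype and 53 in null mice, and the ratio of these reads after scaling by library size was 8.44. This ratio rests on the 4 wildtype reads, and its direction was fixed by the filter.

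*Ccr7*, which guides dendritic and T cells to lymph nodes, was read 9 and 4 times in wildtype and 5, 9 and 29 times in null mice, and *Ccr4*, *Ccr6*, *Ccr8* and *Ccr10* had at most 7 reads in a mouse. The lymphoid and dendritic cell ligands were led by *Ccl19*, a ligand of *Ccr7*. *Ccl19* was at 3.73 and 3.55 CPM in wildtype and at 2.95, 3.45 and 5.86 CPM in null mice, and its groups overlapped (adjusted p = 0.770). *Ccl22*, a ligand of *Ccr4* made by dendritic cells, was read 3 and 3 times in wildtype and 4, 8 and 13 times in null mice, and *Cxcl13*, which draws B cells, 2 and 1 times against 2, 6 and 9 times. *Ccl17*, *Ccl20*, *Ccl1* and *Xcl1* had at most 6 reads in a mouse.

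The other signalling receptors belong to the CXC, CX3C and XC families. *Cx3cr1*, which marks resident macrophages and patrolling monocytes, was at 3.42 and 2.23 CPM in the wildtype mice and at 3.65, 5.47 and 10.2 CPM in the null mice. Mouse 8637 lay just above the higher wildtype mouse. The log2 fold change was 1.20 ± 0.478 (SE, adjusted p = 0.188) and was 0.70 without mouse 9121, and neither the exact test (0.122) nor DESeq2 (0.1003) gave an adjusted p under 0.05. Exons of *Cx3cr1* overlap those of *Gm33858*.

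*Xcr1*, carried by the dendritic cells that cross-present antigen, was at 0.249 and 0.343 CPM in wildtype and at 0.589, 1.01 and 1.80 CPM in null mice. These are 4 and 6 reads against 10, 17 and 34 reads, and because *Xcr1* passed the filter through the null mice alone its direction was fixed by the filter. It is named after its values were seen. Its ligand *Xcl1* had between 1 and 6 reads in each mouse.

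*Cxcr4*, the receptor of *Cxcl12*, was at 4.85 and 3.43 CPM in wildtype and at 5.54, 6.12 and 9.45 CPM in null mice. The groups did not overlap, and the adjusted p was 0.185. *Cxcr3*, the receptor of the interferon-induced ligands on T and NK cells, was at 0.870 and 0.515 CPM in wildtype and at 0.766, 1.25 and 1.58 CPM in null mice. *Cxcr6*, the receptor of *Cxcl16* on T cells, was at 1.55 and 0.629 CPM in wildtype and at 0.766, 1.31 and 2.48 CPM in null mice, and *Cxcr2*, the neutrophil receptor, at 0.746 and 0.400 against 1.002, 0.773 and 0.686 CPM. These last 3 receptors overlapped between groups, and *Cxcr5*, carried by B cells, had 5 and 0 reads in wildtype and 0, 1 and 0 in null mice.

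**Figure D3:**
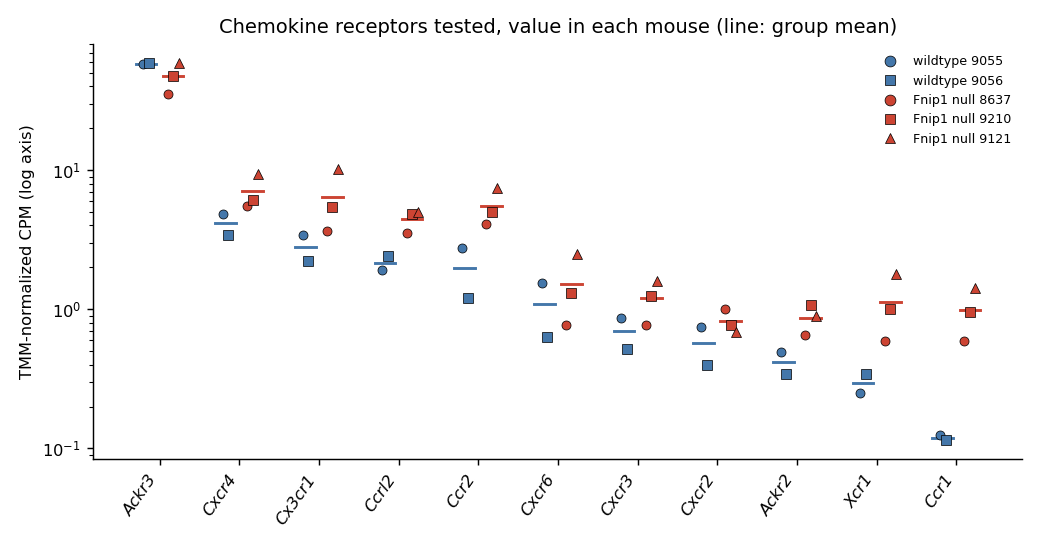
Normalized CPM on a log axis of 11 of the 12 receptors tested, in each mouse (blue wildtype, red *Fnip1* null, marker shape gives the mouse, horizontal lines are group means). Null mouse 9121 (triangle) is the highest in most receptors, while *Ackr3* is at 35.5 to 59.0 CPM in the null mice and at 57.9 and 58.7 CPM in wildtype.

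The atypical receptors bind chemokines without the usual signal and remove or present them. *Ccrl2*, which binds chemerin and is induced on activated leukocytes and endothelium, was at 1.93 and 2.40 CPM in the wildtype mice and at 3.54, 4.82 and 5.02 CPM in the null mice. Here mouse 9121 did not stand apart, and the log2 fold change was 1.04 ± 0.257 (SE, adjusted p = 0.0979) with all mice and 0.94 without mouse 9121. The exact test gave 0.0259 and DESeq2 gave 0.0405.

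*Ackr3*, which takes up *Cxcl12* and was the most abundant receptor, was at 57.9 and 58.7 CPM in the wildtype mice and at 35.5, 47.6 and 59.0 CPM in the null mice. The null mouse at the wildtype level was 9121 (log2 fold change -0.30, adjusted p = 0.391). *Ackr2*, which degrades inflammatory CC ligands, was at 0.497 and 0.343 CPM in wildtype and at 0.648, 1.07 and 0.898 CPM in null mice. *Ackr2* too passed the filter through the null mice alone, so no test is given for it. *Ackr4*, a scavenger of *Ccl19*, *Ccl21* and *Ccl25*, had 10 and 7 reads in wildtype and 3, 9 and 4 in null mice, and *Ackr1* had at most 3 reads.

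Interferon-induced ligands, which recruit T and NK cells through *Cxcr3*, were high in a single null mouse. *Cxcl10* was at 4.54 and 3.20 CPM in wildtype and at 3.24, 4.28 and 15.4 CPM in null mice 8637, 9210 and 9121. *Cxcl9* was at 3.85 and 1.26 CPM in wildtype and at 1.89, 2.79 and 11.5 CPM in null mice. Mice 8637 and 9210 lay between the wildtype mice for both genes. Their log2 fold changes were 0.99 ± 0.700 and 1.10 ± 0.875 (SE, adjusted p = 0.411 and 0.463), and without mouse 9121 they were -0.04 and -0.11. *Cxcl11*, annotated as a polymorphic pseudogene with exons that overlap those of *Gm2673*, was read 6 and 4 times in wildtype and 0, 0 and 3 times in null mice.

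The neutrophil attracting ligands were almost absent. *Cxcl1* had between 3 and 9 reads in each mouse, and *Cxcl2*, *Cxcl5* and *Cxcl15* had no read in the wildtype mice and at most 5 in a null mouse. *Ccl11* and *Ccl24*, which attract eosinophils, were read 5 and 1 times and 0 and 0 times in wildtype, and 10, 9 and 7 times and 1, 0 and 0 times in null mice. Summed neutrophil markers were above both wildtype mice in all null mice (6.72 to 10.3 CPM against 1.06 and 1.20 CPM), with *Camp* and *Mpo* at 0 in all 5 mice. *S100a9* was called, but it had 5 reads in each wildtype mouse and passed the filter through the null mice alone. Its direction was therefore fixed by the filter.

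The null mice differed among themselves in a common order across the members. Mouse 9121 had the highest value of all 5 mice in 21 of the 26 members tested, against 26.1% of all genes tested, and mouse 8637 was the lowest null mouse in 22 of the 26, against 40.4% of all genes. The median difference of the members from the wildtype mean, on the scale of log2 of CPM + 0.1, was 0.31 in mouse 8637, 0.56 in mouse 9210 and 1.19 in mouse 9121. The wildtype mice differed too, with mouse 9056 below mouse 9055 in 21 of the 26 members, against 48.6% of all genes.

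The sums of marker lists of leukocytes, macrophages, dendritic cells, T and NK cells and endothelium had the same order among the null mice. The part of these markers in the member values was not tested. The 6 leukocyte markers summed to 104 and 95.1 CPM in the wildtype mice and 94.6, 113 and 165 CPM in null mice 8637, 9210 and 9121, and none was called. This sum was carried in large part by *Lcp1* and *Ptpn6*, whose groups overlapped (log2 fold changes 0.00442 and -0.13). The other 4 were above both wildtype mice in all null mice, as were 22.9% of all genes, with log2 fold changes from 1.03 to 1.44. Macrophage and monocyte markers summed to 132 and 112 CPM against 119, 153 and 256 CPM, a sum carried in large part by *Csf1r* (log2 fold change -0.61). Of the 9 markers tested, 8 had a log2 fold change above 0, as for *Adgre1* (1.53, adjusted p = 0.0738), against 50.5% of all genes. Dendritic cell markers summed to 96.7 and 68.1 CPM against 106, 139 and 256 CPM. This sum was mostly *H2-Ab1*, at 87.5 and 60.2 CPM against 92.9, 123 and 239 CPM. Of the 7 dendritic cell markers, 5 lay above both wildtype mice in all null mice, against 22.9% of all genes. Among these 5 was *Flt3*, which passed the filter through the null mice alone. The groups overlapped in 2, such as *Zbtb46* (log2 fold change 0.12). T and NK cell markers summed to 6.21 and 2.80 CPM against 7.37, 9.33 and 18.4 CPM. Endothelial markers were at 276 and 163 CPM against 294, 334 and 385 CPM, and fibroblast and pericyte markers at 272 and 146 CPM against 286, 523 and 443 CPM. Kidney tubule markers ranged from 13827 to 16740 CPM and overlapped between the groups. Other lists had sums apart between the groups without mouse 9121 at the top, as for podocyte markers at 314 and 310 CPM against 557, 665 and 595 CPM. Injured tubule markers summed to 15.9 and 9.72 CPM against 26.6, 32.3 and 26.6 CPM. That sum was carried in large part by *Vcam1*, whose groups overlapped, as did those of *Havcr1* and *Sox9*. *Havcr1* was at 0.475 CPM in mouse 9121, below both wildtype mice (1.99 and 1.43 CPM). *Lcn2* was at 0.746 and 0.686 CPM in wildtype and at 3.18, 5.35 and 2.80 CPM in null mice.

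**Figure D4:**
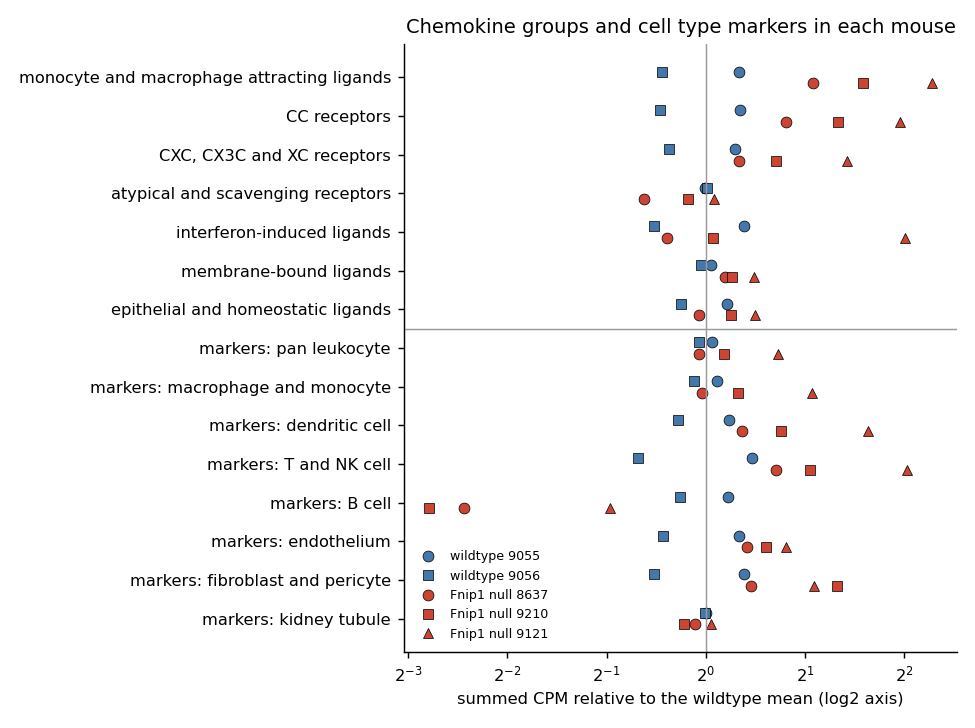
Summed CPM of chemokine groups (above the line) and of cell type marker lists (below it) in each mouse, divided by the mean of the wildtype mice, on a log2 axis. Monocyte and macrophage attracting ligands reach 2.11, 2.99 and 4.86 times the wildtype mean in null mice 8637, 9210 and 9121, and the interferon-induced ligands are high in mouse 9121 only.

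Several members lie side by side in the genome. The receptor genes *Cxcr6*, *Xcr1*, *Ccr1* and *Ccr2* lie near each other on chromosome 9 (GRCm38), with *Cxcr6* at chr9:123806475-123811760 and *Ccr2* at chr9:124101950-124113557. The log2 fold changes were 0.51 for *Cxcr6* and 1.50 for *Ccr2*. *Fyco1*, a gene of another family tested within this stretch, was at 0.27 and was not called. On chromosome 11, *Ccl5*, *Ccl9* and *Ccl6* lie within 138.9 kb at chr11:83525778-83664683, with a median of 1.88, and the other tested gene there, *E230016K23Rik*, was at 0.07. This stretch is 29 Mb from *Fnip1*, which is on the same chromosome. Other members on these chromosomes lie far from the clusters, such as *Ccrl2* at chr9:111054486-111057519.

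Downstream of the receptors, the genes that carry the signal were tested as a list of 44, of which 42 passed the filter. None was called in the quasi-likelihood test. Of the 42, 33 had a log2 fold change above 0, against 50.5% of all genes, and the median was 0.30. Of the 42, 11 had an unadjusted p under 0.05 on the higher side and 2 on the lower side, against the 14% and 11.2% of all genes given above, and the exact test called 5, against 3.06% of all genes higher and 1.05% lower. *Was*, which nucleates actin in blood cells, had a log2 fold change of 1.46, *Vav1*, which activates Rac, 1.41, *Dock2*, which activates Rac in lymphocytes, 1.38, and *Pik3r5*, a subunit of the PI3K gamma complex, 1.33 (adjusted p from 0.104 to 0.155). The lowest values were those of the kinase *Src* (-0.28) and the GTPase *Rap1b* (-0.25), with adjusted p-values of 0.148 and 0.186. The myeloid kinase *Fgr* was at 0.13 and the leukocyte GTPase *Rac2* at 0.91, with groups that overlapped in both.

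Genes that shed, trim or present chemokines formed a list of 23, of which 21 were tested and none was called. Of the 21, 16 had a log2 fold change above 0, against 50.5% of all genes. The median was 0.41. *Mif*, a cytokine that also binds *Cxcr2* and *Cxcr4*, was at 141 and 157 CPM in the wildtype mice and at 233, 248 and 251 CPM in the null mice. Its groups were far apart and its adjusted p was 0.0465, with a log2 fold change of 0.71 ± 0.0962 (SE), under 2-fold. *Mmp12*, a macrophage protease that cuts chemokines, was at 0.559 and 0.343 CPM in wildtype and at 1.18, 1.90 and 2.32 CPM in null mice. It had 9 and 6 reads in wildtype and passed the filter through the null mice alone, so no test is given for it. *Dpp4*, a tubular brush border protease that trims *Cxcl12*, was at 89.3 and 99.8 CPM against 120, 136 and 120 CPM (0.41, adjusted p = 0.0985). *Gpc3*, a heparan sulfate carrier, had a log2 fold change of 1.05 (adjusted p = 0.0664) and *Gpc4* one of -0.49 (0.156).

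Leaving out mice changed the number of members called higher, and the number over all genes with it. The quasi-likelihood test called 7 higher without mouse 8637, among them *Ccl6*, *Ccr1*, *Ccr2*, *Ccrl2*, *Cx3cr1* and *Xcr1*, against 4.74% of all genes. It called none without mouse 9121, against 0.644% of all genes, and without mouse 9055, 9056 or 9210 it called no gene of the whole table. Without mouse 9121, 17 of 26 members had a log2 fold change above 0 and the median was 0.52, against a median of -0.000991 over all genes. The exact test with a null mouse left out, a choice made after seeing the data, called 10 without mouse 8637, against 6.76% of all genes, 3 without mouse 9210 (*Ccl5*, *Ccl6* and *Ccr1*), against 1.48%, and 2 without mouse 9121 (*Ccl6* and *Ccr1*), against 2.41%. The 7 and the 10 called without mouse 8637 include *Ccr1* and *Xcr1*, and the 10 also include *Ccl2*. *Ccr1*, *Xcr1* and *Ccl2* had fewer than 10 reads in each wildtype mouse and passed the filter through null mice alone.

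**Figure D5:**
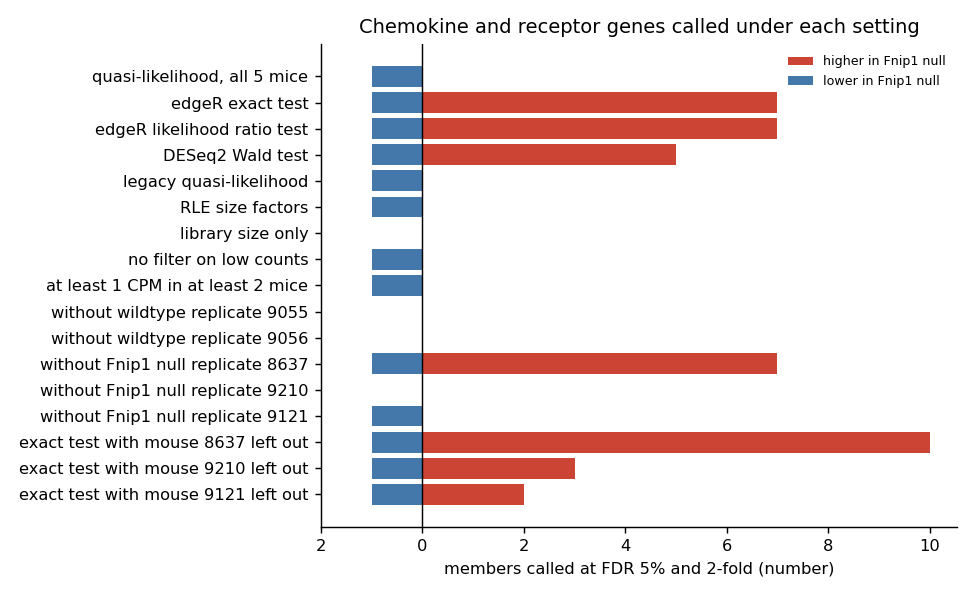
Number of members called at an FDR of 5% and 2-fold under each test, normalization, filter and set of mice, higher in *Fnip1* null to the right (red) and lower to the left (blue). The exact test calls 7 higher with all mice and between 2 and 10 with a null mouse left out, and the quasi-likelihood test calls members higher only without mouse 8637. Each of these counts includes *Ccr1*, which passed the filter through the null mice alone.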

How the data were processed

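RNAseq libraries were made by the authors from total RNA of frozen kidney cortex with a kit that does not mark strand (TruSeq RNA), and paired-end reads were aligned to mm10 with TopHat 2.1.0 and counted per gene with HTSeq 0.6.1. The deposited values are these counts per gene symbol, without normalization. Counts not assigned to a gene (39.0% to 42.8% of the counted total per mouse) were left out, and most of them were alignments that were not unique. The strand setting of the counting is not given in the sources used here, so genes with overlapping exons are uncertain.

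Counts were analysed with edgeR 4.0.16 (limma 3.58.1, R 4.3.3): TMM normalization, genes left out with fewer than 10 counts in more than 2 of 5 mice, the quasi-likelihood test, Benjamini-Hochberg adjustment over all 13874 genes, and calls at an FDR of 5% and 2-fold. The study used edgeR with these thresholds, and which of its tests is not given in the sources used here. Alternatives were the exact, likelihood ratio and legacy quasi-likelihood tests, DESeq2 1.42.0, other normalizations and filters, and leaving out each mouse. The tests were tested on simulated data. Levels per length use exons of GENCODE M21 (GRCm38), and promoters are from RefSeq (GRCm38.p6).

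Members and gene lists were chosen with earlier results of these data known. Values in every mouse are given for members called, for members with at least 1 CPM on average, 2-fold and no overlap between groups, and for their ligand or receptor partners. Other members with values in each mouse were chosen after their values were seen. A member and a signalling gene are included in counts and sums, but their own values are not reported here.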

Additional observations from a re-analysis of the deposited data

How the results depend on the processing

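The direction of *Ccl28* (log2 fold change between -2.83 and -2.16) and a positive median of the tested members were kept under all alternatives. Members called higher were 7 with edgeR's exact and likelihood ratio tests, 5 with DESeq2 and between 0 and 7 with a mouse left out of the quasi-likelihood test, against 0 with all mice. The exact test, in a choice made after seeing the data, gave 10, 3 and 2 with mouse 8637, 9210 or 9121 left out. All of these counts above 0, except that of DESeq2, include *Ccr1*, which passed the filter through the null mice alone. Members called lower were 0 with library size scaling alone and between 0 and 1 with a mouse left out, against 1. The median of the tested members ranged from 0.52 to 1.26 with a mouse left out, against 0.90. Library size scaling alone moved the median of all genes to 0.17 and that of the members to 1.08, and *Ccl28* then missed the threshold (adjusted p = 0.0562).

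Signalling genes called were 5 in the likelihood ratio and exact tests, 2 in DESeq2 and between 0 and 4 with a mouse left out, against 0, and the exact test gave 11, 1 and 1 without mouse 8637, 9210 or 9121. Handling genes called were 3 in each of these 3 tests, 1 (*Mif*) at the FDR alone and between 0 and 4 with a mouse left out, against 0, and the exact test gave 5 without mouse 8637 and 2 without mouse 9121. Over the whole table of 13874 genes, the exact test called 424 higher and 146 lower and the likelihood ratio test 477 and 151. DESeq2 called 366 and 121 of 13335 genes. Without mouse 8637 the quasi-likelihood test called 670 and 293 of 14130 genes. Without mouse 8637, 9210 or 9121 the exact test called 955, 208 and 337 higher and 340, 66 and 153 lower. Genes called higher over the whole table thus ranged from 0 to 955 across the same settings. The cause of these changes was not tested. No paired analysis was possible because the groups share no replicate numbers. At this depth, 36 of the 62 members could not be tested.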
